A study of Mus musculus with 24 samples.

Results

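C2C12 is a mouse skeletal myoblast line that fuses into myotubes when serum is lowered. The comparison described here is its differentiation over 48 h after siRNA against Ift88, a component of the intraflagellar transport machinery that builds the primary cilium. Of the 24 arrays in the study, 6 were used for it: 3 of IFT88KD myoblasts in proliferating condition and 3 of IFT88KD myoblasts after 48 h of differentiation. They were chosen by the condition named in their labels. The proliferating cells were adherent in DMEM with 20% fetal bovine serum. The differentiating cells were adherent, had reached confluence and were kept in DMEM with 2% horse serum. Every group of the comparison carried the Ift88 siRNA. The same 2 conditions after negative control siRNA, 3 arrays each, served to ask whether the change differed with the knockdown. The study's other groups (suspension-arrested and replated cells) entered the estimate of the spread, the choice of a probe set for each gene and the filter. The change of serum, the density and the 48 h differ together between the conditions and cannot be told apart. The knockdown is a transient siRNA treatment of 1 cell line. The labels do not say that the 3 arrays of a group came from separate cultures, so the p-values measure the spread between these arrays, which may be technical.

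Differentiation of myoblasts is driven by the basic helix-loop-helix factors MyoD and myogenin, which act with Mef2 proteins on E-boxes of muscle genes. Id proteins bind the E-protein partners of these factors and keep them from DNA. Cells that differentiate leave the cell cycle through the inhibitors p21 and p57 and the retinoblastoma protein, switch on the sarcomere genes and fuse. The primary cilium is a sensory organelle assembled mostly in non-dividing cells and a site of Hedgehog signalling.

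The deposited values are log2 expression values per probe set, and each gene was read from its brightest probe set. Probe sets whose name ends in _x_at were set aside where the gene had another, even if brighter. Of 12393 genes, 8600 were tested, those whose probe set exceeded the 40th percentile in 3 or more arrays. That filter level was 2.23 to 2.38 on the 12 arrays of the 4 groups used here, and a value under it is near background. Levels of different genes are not compared. Ift88 itself read 3.62, 3.49 and 3.54 on the 3 proliferating IFT88KD arrays and 3.88, 3.51 and 4.0 on the differentiating ones, a change of 0.24 (SE 0.16, adjusted p = 0.21) that did not pass the test. In control cells it read 4.35, 3.74 and 4.13, then 3.77, 3.71 and 3.93. All 3 knockdown arrays lay below all 3 control arrays in proliferating cells, and the groups overlapped in differentiating cells, where the knockdown could not be seen at the transcript level. The myotube marker list (8 genes, all higher, median change 4.28) and the myoblast marker list (7 genes, 6 higher and 1 lower, median 0.65) were well measured. No endothelial or epithelial marker was measurable (0 of 6 and 0 of 5 tested). The macrophage list had 3 of 8 genes tested, of which none passed, and the mean over its measured genes was 1.63 to 1.79 on every array. In bulk RNA, fewer cells of a type and less RNA per cell cannot be told apart.

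The proliferating arrays were not alike. The mean of 105 muscle genes was 4.61, 4.74 and 5.34 in replicates 1 to 3 of proliferating IFT88KD cells and 7.35, 7.11 and 6.99 in the differentiating ones, so that replicate 3 of the proliferating cells stood nearest to the differentiated state. Control cells had the same spread, with 4.28, 4.70 and 5.09 before and 7.51, 7.32 and 7.29 after. Without that knockdown array the count of changed genes was 4242 in place of 4358, while the changes of muscle genes were larger (median over the 105 genes 2.06 in place of 1.84).

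Between the conditions, 4358 of 8600 genes changed at an adjusted p under 0.05 (50.7%), 1947 of them higher (22.6%) and 2411 lower (28%) in the differentiating cells. Of these, 573 rose by at least 1 log2 unit (6.66%) and 407 fell by that much (4.73%). For 4982 genes (57.9%) the 3 arrays of one condition did not overlap those of the other. The median change of all genes was -0.05, and it was -0.16 when each array was centred on its own median, where 1547 genes were higher and 3195 lower. The counts of a gene list below are to be read against these shares.

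**Figure D1:**
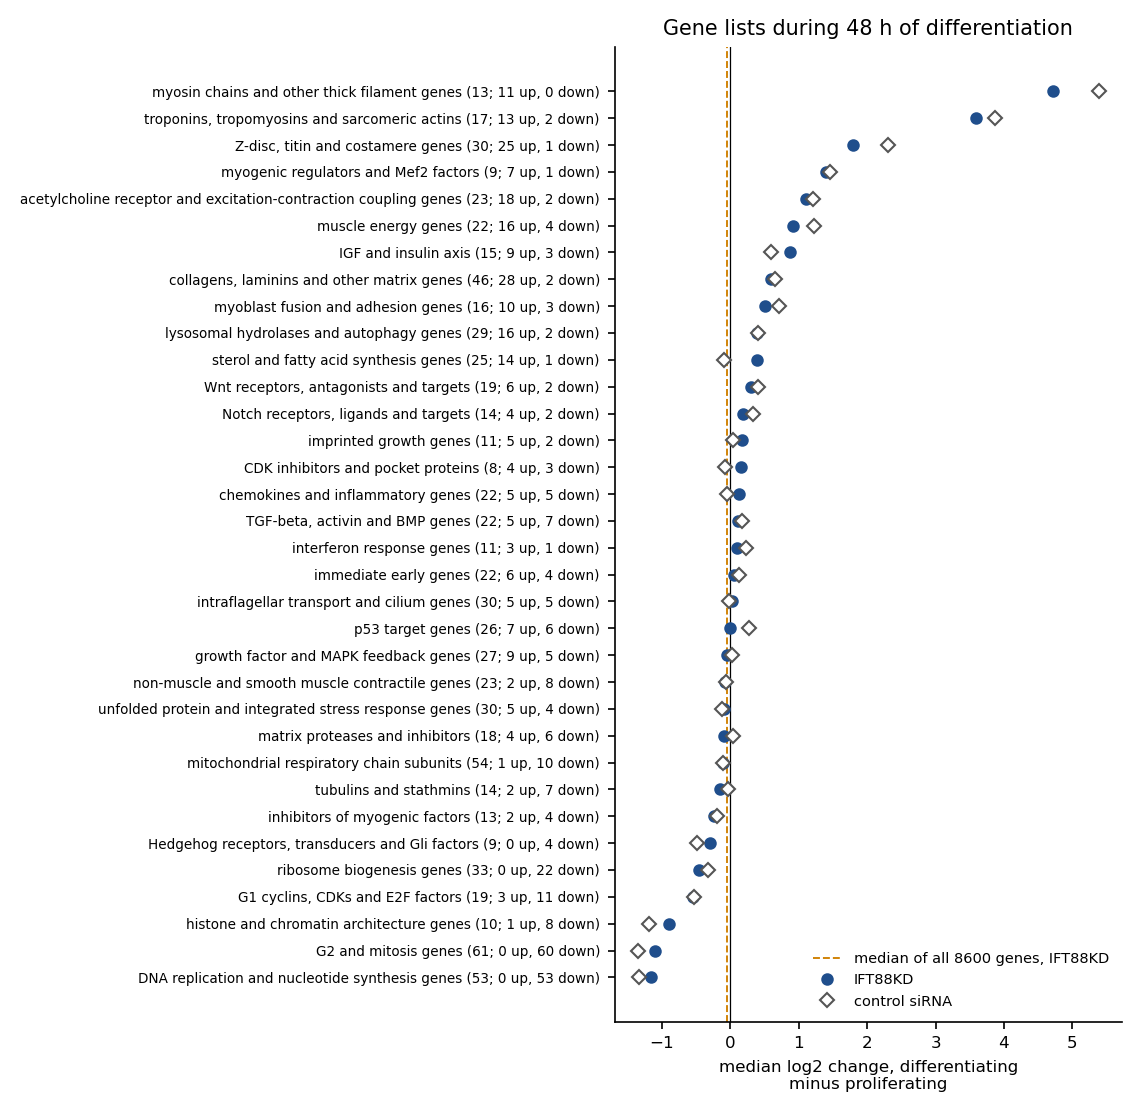
Median log2 change over 48 h of differentiation (horizontal axis) for 34 gene lists (vertical axis), in IFT88KD cells (filled circles) and control siRNA cells (open diamonds); the brackets give the genes tested and how many passed the test in IFT88KD cells, and the dashed line is the median of all 8600 genes, -0.05. Myosin chains and other thick filament genes lie at 4.72 in IFT88KD and 5.39 in control cells, DNA replication genes at -1.15 and -1.33, and sterol and fatty acid synthesis genes at 0.38 and -0.10.

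Among the myogenic regulators and Mef2 factors, 7 of 9 tested genes rose and 1 fell (median 1.40). Myog, the factor that commits myoblasts to differentiate, read 6.72, 7.52 and 9.17 in proliferating cells and 10.73, 10.66 and 10.66 after 48 h. It rose by 2.88 (7.34-fold, SE 0.59, adjusted p = 3.56e-04), and its proliferating arrays spread far more than its differentiating ones. Mef2c, a MADS-box partner of the myogenic factors, read 3.80, 4.87 and 4.89 and then 7.78, 8.03 and 7.95, a rise of 3.40 (10.6-fold). Tead4, which binds MCAT elements of muscle promoters, rose by 2.45, Mef2a by 1.80 and Mef2d by 1.40. Myod1 was already high, at 7.88, 7.87 and 8.44, and read 8.66, 8.47 and 8.47 afterwards. Its change of 0.47 (SE 0.19) passed narrowly, at adjusted p = 0.0423, and was lost without any 1 of the 6 arrays other than proliferating replicate 3 (adjusted p up to 0.159). Myf5, the factor of undifferentiated myoblasts, fell by 1.03.

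Of 13 inhibitors of myogenic factors, 2 rose and 4 fell (median -0.24). The falls were led by the Id genes. Id3 read 9.61, 9.43 and 9.54 in proliferating cells and 5.28, 5.26 and 5.32 in differentiating cells, 18.9-fold lower, the largest fall of all genes. Id2 read 8.25, 8.69 and 8.23 and then 4.74, 5.50 and 4.98 (9.98-fold lower), and Id1 9.10, 8.87 and 8.68 and then 6.30, 6.21 and 6.26 (6.18-fold lower). No array of one condition overlapped the other for any of the 3 Id genes, and the proliferating arrays lay close together. Twist2 also fell, by 1.59. Zeb1 (1.37) and Bhlhe40 (1.20), transcriptional repressors, rose.

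**Figure D2:**
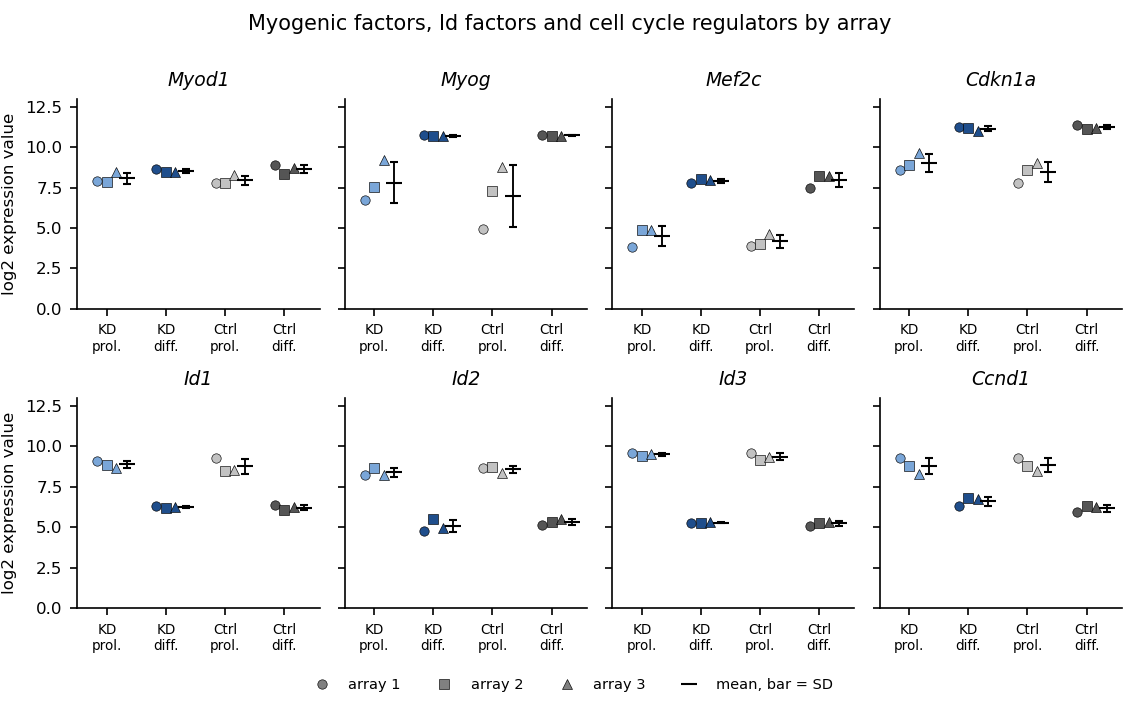
Log2 expression value (vertical axis) of 8 regulators on each array of IFT88KD (KD, blue) and control siRNA (Ctrl, grey) cells, proliferating (prol.) and differentiating (diff.); symbols are the array numbers, and the bar is the mean with its SD (n = 3). Myog, Mef2c and Cdkn1a lie higher and Id1, Id2, Id3 and Ccnd1 lower on every differentiating array, and proliferating Myog runs from 6.72 to 9.17 in IFT88KD cells.

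The contractile genes rose together. Of 13 thick filament genes, which are 7 myosin chains and 6 myomesins, myosin-binding proteins and modifiers of myosin, 11 rose and none fell (median 4.72). All 7 myosin chains tested were among those that rose. Of 18 measured genes of this list, 13 were tested. Myh2, Myh4, Myh6, Myl2 and Myl3 did not pass the filter. Their means in differentiating cells were 1.20, 1.16, 1.73, 2.09 and 2.12, near background. Of 17 troponins, tropomyosins and sarcomeric actins, 13 rose and 2 fell (median 3.59). Of 30 genes of the Z-disc, titin and costamere, 25 rose and 1 fell (median 1.79). Over these lists with excitation-contraction coupling and muscle energy genes, 83 of 105 rose and 9 fell, against 22.6% and 28% of all genes. For 81 of the 105 every differentiating array lay above every proliferating one, against 26% of all genes. A gene silent in proliferating cells entered the test only if it passed the filter elsewhere. Muscle genes that stayed near background are therefore missing from these shares, which the filter sets in part.

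The largest rise of all was Mybph, a thick filament protein. It read 2.54, 3.15 and 5.59 before and 10.55, 10.24 and 10.08 after 48 h, 92.6-fold higher (log2 change 6.53, SE 0.59, adjusted p = 1.1e-08), and 7.45 in log2 without replicate 3 of the proliferating cells. Embryonic myosin Myh3 read 4.67, 5.30 and 7.66 and then 11.22, 10.93 and 10.84 (5.12), again with the highest proliferating value on replicate 3. The essential light chain Myl4 rose by 5.84, slow myosin Myh7 by 5.54 and the M-band protein Myom2 by 5.99. Perinatal myosin Myh8 was near background on all proliferating arrays, at 1.10, 1.14 and 1.13, and read 5.40, 4.22 and 5.20 afterwards. Fast troponin C, Tnnc2, rose by 5.20, slow troponin C, Tnnc1, by 3.95, and skeletal actin, Acta1, by 3.85. Of the Z-disc, Myoz2, which binds calcineurin, read 1.52, 1.56 and 1.79 and then 7.65, 7.20 and 6.96 (50.0-fold higher). The stretch-linked Smpx rose by 5.20 and the giant spring protein Ttn by 3.27. Where the proliferating value lay under the filter level, as on all 3 arrays for Myoz2, Ankrd2 (4.96) and Cox8b (4.94), the fold starts from near-background signal. This held on at least 1 array for 8 of the 15 largest rises.

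Of 23 genes of the acetylcholine receptor and excitation-contraction coupling, 18 rose and 2 fell (median 1.10). The calcium-binding protein of the sarcoplasmic reticulum Casq2 rose by 5.66, Hrc by 5.23 and Trdn by 4.81. The release channel Ryr1 rose by 4.57, its voltage sensor Cacna1s by 4.19 and the fetal receptor subunit Chrng by 3.39. Of 22 muscle energy genes, 16 rose and 4 fell (median 0.92). Muscle creatine kinase, Ckm, read 3.15, 3.29 and 5.18 and then 9.24, 8.91 and 8.45 (31.9-fold higher). Myoglobin, Mb, rose by 4.13 and glycogen phosphorylase, Pygm, by 3.79, while lactate dehydrogenase subunits Ldha and Ldhb fell by 0.88 and 0.89. Of 16 fusion and adhesion genes, 10 rose and 3 fell (median 0.50). The fusogen Mymk read 2.48, 3.32 and 4.90 and then 8.51, 8.63 and 8.31 (30.2-fold higher), caveolin Cav3 rose by 4.70 and the membrane repair protein Dysf by 2.30. Of 23 non-muscle and smooth muscle contractile genes, 2 rose and 8 fell (median -0.07), among them cytoplasmic actin Actg1 (-0.55), calponin Cnn1 (-0.82) and Tagln2 (-1.25).

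The fall of Tpm1, Tpm3, Atp2a2 and Asph rested on which probe set was read. Probe sets of 101 genes, of 3406 with several, changed in opposite directions past the threshold, 5 of them in the muscle lists. The 3 probe sets of tropomyosin Tpm1 gave changes of 1.01, 0.71 and -0.35, and the 5 of Tpm3 2.24, 1.72, -0.41, -0.79 and -1.28. The 4 probe sets of the calcium pump gene Atp2a2 gave 2.24, 2.01, 0.35 and -0.31. The 5 of Asph, which encodes aspartyl hydroxylase and junctional proteins, gave 2.31, 1.94, 0.20, -0.05 and -0.93, and the 6 tested of Pdlim5 2.03, 1.53, -0.58, -0.66, -0.84 and -1.05 (another of Pdlim5, under the filter, gave -0.47). In each of these genes the brightest probe set was one that fell, so the gene was counted as lower although other probe sets rose. These genes are known for isoforms that differ between muscle and other cells, and which transcript each probe set reads was not tested.

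**Figure D3:**
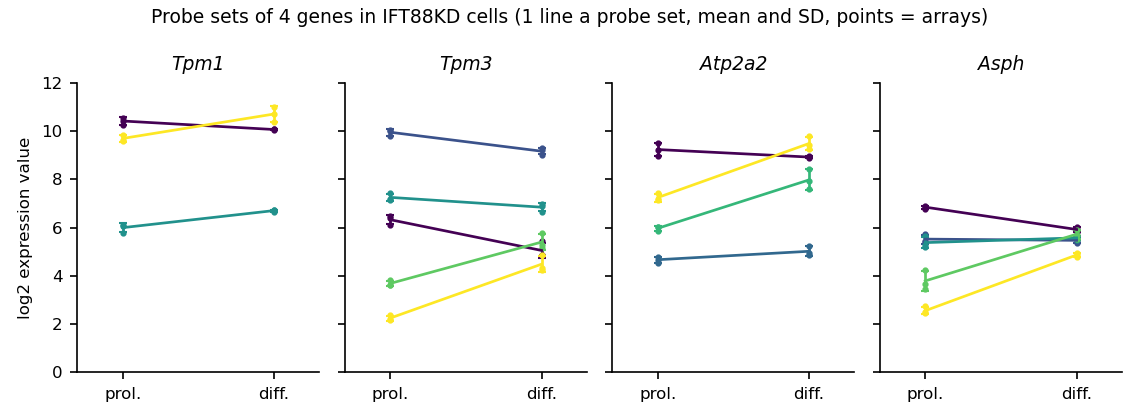
Log2 expression value (vertical axis) of every probe set of Tpm1, Tpm3, Atp2a2 and Asph in proliferating (prol.) and differentiating (diff.) IFT88KD cells; a line is a probe set, points are the 3 arrays, and bars are the SD around the mean. Within each gene some lines rise and others fall, from 2.24 to -1.28 for Tpm3.

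The 250 bases before the start of each gene were searched on both strands for the elements named below (RefSeq, GRCm38.p6). Whether promoter elements bear on the joint movement of the gene lists was not tested. Myoz2 and Mybph are shown as muscle genes with a strong rise, Myoz2 at chr3:123034988-123035237 on the minus strand and Mybph at chr1:134193198-134193447 on the plus strand. Capitals mark the E-box CAGCTG and, in Myoz2, the MEF2 box. Ccnb2 and Cdc20 are shown as mitosis genes that fell, Ccnb2 at chr9:70421555-70421804 and Cdc20 at chr4:118437344-118437593, both on the minus strand. Capitals mark the cell cycle element CHR, searched as TTTGAA, and the CCAAT box.
Myoz2: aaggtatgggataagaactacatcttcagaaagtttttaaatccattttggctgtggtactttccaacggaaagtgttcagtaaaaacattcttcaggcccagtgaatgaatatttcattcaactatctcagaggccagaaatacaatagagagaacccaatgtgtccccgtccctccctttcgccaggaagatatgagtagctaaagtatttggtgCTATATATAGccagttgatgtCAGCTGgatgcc
Mybph: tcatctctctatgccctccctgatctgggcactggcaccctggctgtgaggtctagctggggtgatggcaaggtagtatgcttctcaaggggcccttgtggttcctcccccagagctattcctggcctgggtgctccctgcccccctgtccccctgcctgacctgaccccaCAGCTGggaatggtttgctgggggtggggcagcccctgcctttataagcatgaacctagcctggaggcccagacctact
Ccnb2: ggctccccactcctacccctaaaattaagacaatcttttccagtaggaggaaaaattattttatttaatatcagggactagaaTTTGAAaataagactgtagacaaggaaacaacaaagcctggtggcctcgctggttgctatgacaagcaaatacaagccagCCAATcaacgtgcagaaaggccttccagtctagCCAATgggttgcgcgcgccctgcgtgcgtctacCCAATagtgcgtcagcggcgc
Cdc20: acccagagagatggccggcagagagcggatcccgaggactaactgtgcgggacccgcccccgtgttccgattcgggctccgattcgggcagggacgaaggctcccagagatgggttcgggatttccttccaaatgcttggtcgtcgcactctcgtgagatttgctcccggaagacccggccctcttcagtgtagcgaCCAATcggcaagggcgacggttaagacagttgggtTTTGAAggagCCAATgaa

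The E-box lies 12 bases before the start in Myoz2 and 79 bases before it in Mybph. The MEF2 box match of Myoz2 lies 33 bases before the start, and its letters hold TATATATA. Whether it is a MEF2 site or a TATA box was not tested. Of 107 promoters of muscle list genes (83 of 105 genes matched), 33 held CAGCTG (30.8%), against 13% of the 32851 promoters in the table and 11.9% of the 9004 of tested genes (6976 of 8600 matched). The MEF2 box was in 12 of them (11.2%), against 2.92% and 1.53%, and the CArG box in 6 (5.61%), against 1.47% and 1.32%. CHR was in 21 of the 56 promoters of G2 and mitosis genes (37.5%; 52 of 61 genes matched), against 16% and 10.2%, and in 7 of 56 of replication genes (12.5%). CCAAT was in 41 (73.2%) of the mitosis promoters, 28 (50%) of the replication promoters and 18 of 24 (75%) of those of sterol and fatty acid synthesis genes, against 33.8% and 35.1%. A match describes the letters of the window and shows neither a bound site nor a cause.

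The cell cycle genes moved the other way. Every one of 53 genes of DNA replication and nucleotide synthesis fell, as did 60 of 61 genes of G2 and mitosis, with none higher in either list, against 28% lower among all genes. Their medians were -1.15 and -1.11. The ribonucleotide reductase subunit Rrm2 read 10.05, 10.09 and 9.90 in proliferating cells and 7.67, 7.83 and 8.06 in differentiating cells, 4.48-fold lower (SE 0.17 in log2, adjusted p = 1.46e-09). The helicase subunits Mcm3 and Mcm5 fell by 1.89 and 1.86, and the sliding clamp Pcna by 0.86. Ccnb2, a mitotic cyclin, read 8.38, 8.31 and 8.15 and then 7.08, 7.34 and 7.38, a fall of 1.01. Cdc20, the activator of the anaphase-promoting complex, read 9.07, 8.95 and 8.87 and then 7.39, 7.70 and 7.56. The cyclin-dependent kinase Cdk1 fell by 1.34, the chromosomal passenger kinase Aurkb by 1.46 and the cytokinesis kinesin Kif23 by 1.55. The differentiating arrays still read above 7 for Ccnb2 and Cdc20, and replicate 1 was the lowest of them for both genes.

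Of 8 CDK inhibitors and pocket proteins, 4 rose and 3 fell. Cdkn1c, which encodes p57, read 4.07, 4.53 and 5.69 and then 9.58, 9.52 and 9.73, 28.8-fold higher (log2 change 4.85, SE 0.26, adjusted p = 3.7e-12). Cdkn1a, which encodes p21, read 8.57, 8.86 and 9.66 and then 11.27, 11.17 and 10.97, 4.31-fold higher. Rb1 rose by 1.40, and Cdkn1b, which encodes p27, by 0.48 with overlapping arrays. The call of Cdkn1b was lost without replicate 1 or 3 of either condition (adjusted p up to 0.104), and with the mean of its probe sets (0.372). The falls were Cdkn2c (-0.36), Cdkn2d (-0.31) and the pocket protein Rbl1 (-0.90). Cdkn2c was lost without differentiating replicate 1 (adjusted p = 0.0647) and Cdkn2d without any 1 of 4 arrays, proliferating 2 and 3 and differentiating 1 and 2 (up to 0.153). Of 19 G1 cyclins, CDKs and E2F factors, 3 rose and 11 fell (median -0.55). Cyclin D1, Ccnd1, read 9.31, 8.80 and 8.30 and then 6.29, 6.78 and 6.73, a fall of 2.20. Cyclin E1, Ccne1, fell by 1.76, Ccne2 by 1.62 and E2f1 by 1.19, while cyclin D3, Ccnd3, rose by 0.86. The largest rise of this list was that of the kinase Cdk2, by 1.09. It also rose in control cells, by 0.94 to 1.13 over the alternative settings. A second probe set of E2f1, also above the filter level, changed by -0.12. Of 10 histone and chromatin architecture genes, 1 rose and 8 fell (median -0.89). The linker histone H1f2 rose by 0.76, while H2ax fell by 1.33 and Hmgb2 by 1.12.

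Of 33 ribosome biogenesis genes, 22 fell and none rose (median -0.46), among them Noc2l (-1.04) and the nucleolar chaperone Npm1 (-0.79). Of 54 subunits of the mitochondrial respiratory chain, 1 rose and 10 fell (median -0.11), so that 43 did not pass the test. Cytochrome c, Cycs, fell by 0.76 and the succinate dehydrogenase subunit Sdhb by 0.60. The muscle-type subunits Cox6a2 (4.91) and Cox8b (4.94), counted with the muscle energy genes, rose far more than any of them.

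Of 46 collagens, laminins and other matrix genes, 28 rose and 2 fell (median 0.60). Decorin, Dcn, a small proteoglycan that binds TGF-beta, read 1.72, 2.17 and 2.41 and then 8.16, 7.81 and 7.10 (48.2-fold higher, from a level near background on 2 arrays). Postn rose by 3.88, the collagen VI chains Col6a2 and Col6a1 by 3.72 and 3.41, and collagen I, Col1a1, by 3.11. The cross-linking enzyme Lox fell by 0.53. The fibroblast markers had 2 of 6 measured genes tested, with Pi16 higher (1.18), and the mean of their measured genes was 1.95 to 2.01 in proliferating and 2.09 to 2.19 in differentiating cells, under the filter level. Whether fibroblast-like cells contributed was not tested. Of 18 matrix proteases and inhibitors, 4 rose and 6 fell (median -0.09). Adamts5, which cleaves versican, rose by 3.48, while the inhibitor Timp3 fell by 1.93 and the urokinase receptor Plaur by 1.99. Serpinb2, an inhibitor of urokinase, read 5.76, 5.70 and 3.35 and then 0.79, 0.83 and 0.77, under the filter level on every differentiating array.

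Of 15 genes of the IGF and insulin axis, 9 rose and 3 fell (median 0.87). Igf2, an autocrine growth factor of differentiating myoblasts, read 5.11, 5.23 and 7.19 and then 9.16, 8.96 and 9.25, a rise of 3.28 (9.71-fold). Igf1 rose by 3.12 from a level near background, and the scavenging receptor Igf2r by 1.95. The binding protein Igfbp2 fell by 1.93. Of 11 imprinted growth genes, 5 rose and 2 fell (median 0.17). The genes that rose were Dcn, Cdkn1c, Igf2, Igf2r and Mest (2.09), and those that fell were Peg3 (-0.40) and Ndn (-0.82). Of 27 growth factor and MAPK feedback genes, 9 rose and 5 fell (median -0.05). The neuregulin receptor Erbb3 rose by 4.79, the hormone Fgf21 by 4.56 and the feedback inhibitor Spry1 by 2.74. The ligands Ereg and Hgf fell by 2.01 and 1.53. Of 22 immediate early genes, 6 rose and 4 fell (median 0.06). Egr1 rose by 1.31, while the Fos family member Fosl1 fell by 2.98 and the nuclear receptor Nr4a2 by 1.98.

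Of 9 Hedgehog receptors, transducers and Gli factors, none rose and 4 fell (median -0.29). The targets Gli1, Ptch1 and Hhip fell by 0.95, 0.80 and 1.77, and the factor Gli2 by 0.92. Gli1 and Hhip were under the filter level on all differentiating arrays, so their falls end near background. Of 30 intraflagellar transport and cilium genes, 5 rose and 5 fell (median 0.03). The transport motor Kif3a rose by 1.08, while the transition zone gene Cep290 fell by 1.54, and the transport subunits Ift57 and Ift74 by 0.62 and 0.54. Control cells changed in a similar way. There, none of the 9 Hedgehog genes rose and 5 fell (median -0.49), and 5 of the 30 cilium genes rose and 7 fell (median -0.02). No gene of either list differed in its change between the siRNAs past the adjusted threshold.

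Of 14 Notch receptors, ligands and targets, 4 rose and 2 fell (median 0.18). The ligand Dll1 rose by 2.18 and the receptor Notch3 by 1.43, and Lfng, a glycosyltransferase that modifies Notch, fell by 2.26. Of 22 TGF-beta, activin and BMP genes, 5 rose and 7 fell (median 0.11). Tgfb3 rose by 2.02 and follistatin, Fst, by 2.07, while the BMP antagonist Grem1 fell by 2.22 and the inhibitory Smad6 by 2.02. Of 19 Wnt receptors, antagonists and targets, 6 rose and 2 fell (median 0.30), with Dkk3 higher (1.54) and Sfrp2 lower (-1.32). Of 26 p53 target genes, 7 rose and 6 fell (median -0.01). The pro-apoptotic Pmaip1 rose by 2.74, and Ccng1 and Polk fell by 0.93 each.

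Of 29 lysosomal and autophagy genes, 16 rose and 2 fell (median 0.40). The autophagosome protein Map1lc3a rose by 1.99 and the acid glucosidase Gaa by 1.10, and the glucuronidase Gusb fell by 0.83. Of 30 unfolded protein and integrated stress response genes, 5 rose and 4 fell (median -0.09), with the chaperone Dnajb9 higher (1.32) and the folate enzyme Shmt2 lower (-0.94). Of 11 interferon response genes, 3 rose and 1 fell (median 0.09), and of 22 chemokines and inflammatory genes, 5 rose and 5 fell (median 0.13). The class I gene H2-K1 rose by 1.11, complement C1ra by 1.92 and Ccl9 by 1.82, and the cyclooxygenase Ptgs2 fell by 1.14, a call lost without proliferating replicate 1 (adjusted p = 0.0602). Of 14 tubulins and stathmins, 2 rose and 7 fell (median -0.15): Tubb6, found in regenerating muscle, rose by 1.11, and Tubb3 and Stmn1 fell by 1.48 and 0.80.

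Markers of other cell types were few. Of 5 satellite or reserve cell markers, Spry1 rose and Vcam1 (-0.51) and Sdc4 (-0.32) fell, and Pax7 was under the filter. The calls of Vcam1 and Sdc4 were lost without replicate 1 of either condition, and that of Sdc4 also without proliferating 2 or differentiating 3 (adjusted p up to 0.0684 and 0.288). Of 5 smooth muscle markers, 2 rose and 1 fell, Acta2 (0.49) and Des (0.65) against Cnn1. Of 3 adipocyte markers tested, Pparg (-1.70) and Cebpa (-0.88) fell. Both bone and cartilage markers tested fell, Sp7 (-1.64) and Sox9 (-1.13), and the only neuron and glia marker tested was Tubb3.

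Outside the muscle lists, the 15 largest falls ran from 5.88-fold to 18.9-fold, and 4 of these genes ended under the filter level on all 3 arrays. The carbonic anhydrase-related gene Car8 read 5.84, 5.89 and 5.31 and then 1.46, 1.41 and 1.52. The water channel Aqp1 read 7.74, 7.88 and 7.28 and then 3.52, 4.20 and 2.98, 16.8-fold lower. Further down were Tafa5 (-3.14), the lipid-binding Fabp7 (-3.12), P-selectin, Selp (-2.87), the chromatin protein Hmga2 (-2.73), the pyruvate dehydrogenase kinase Pdk4 (-2.73) and the quinone reductase Nqo1 (-2.65).

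The differentiation change was then set against that of control siRNA cells, which shares no array with it. In control cells 4708 genes changed (54.7%), 2102 higher (24.4%) and 2606 lower (30.3%). Of the genes called in IFT88KD cells, 3848 were called in the same direction in control cells (88.3% of the knockdown calls and 81.7% of the control calls), and 1 in the opposite direction. Over all 8600 genes, which are not independent replicates, the 2 changes correlated with Pearson's r = 0.969 and Spearman's rho = 0.938, and the regression slope was 0.887. The difference of the changes, knockdown minus control, passed for 44 genes (0.512%) with the array number as a block within condition, described further below. Without that block it passed the test for 4 genes (0.0465%), and 306 genes had an unadjusted p under 0.05 (3.56%).

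Each of these 4 genes had an adjusted p of 0.0495. Fst, the secreted antagonist of activin and myostatin, read 5.81, 5.55 and 6.41 in proliferating and 8.18, 7.97 and 7.84 in differentiating IFT88KD cells, a rise of 2.07. In control cells Fst read 4.70, 4.61 and 4.96 and then 8.40, 8.19 and 8.38, a rise of 3.57, so the difference was -1.50 (SE 0.27). Knockdown arrays were higher than control arrays before differentiation, with no overlap, and the differentiated knockdown arrays all lay below the control ones. Adenylate kinase Ak1 read 7.29, 7.15 and 7.04 and then 7.69, 7.47 and 7.23 after knockdown, and 6.17, 6.41 and 6.63 and then 7.85, 7.79 and 7.53 in control cells. Its change was 0.30 after knockdown and 1.32 in control cells (difference -1.02, SE 0.17), and a second probe set of Ak1, near background, showed a difference of 0.02. The phosphatase Ptp4a3 read 6.01, 6.10 and 6.43 and then 5.91, 6.14 and 5.77 after knockdown, a change of -0.24 that did not pass (adjusted p = 0.108). In control cells it read 5.15, 5.45 and 5.50 and then 5.93, 6.19 and 6.08 (difference -0.94, SE 0.17). As with Fst, the 2 siRNAs differed without overlap in proliferating cells, and they overlapped in differentiating cells. Stmn2, a microtubule-destabilising stathmin, read 9.36, 9.58 and 9.25 and then 7.91, 8.11 and 7.99 after knockdown. In control cells it read 9.71, 9.76 and 9.60 and then 7.38, 7.53 and 7.45 (difference 0.84, SE 0.16), with every differentiated control array below every knockdown one. Leaving out any 1 of the 12 arrays left 0 to 2 of these calls. Ak1 alone passed without knockdown differentiating replicate 1, control proliferating replicate 3 or control differentiating replicate 3, Fst and Stmn2 passed without knockdown proliferating replicate 2, and none of the 4 passed without any of the other 8 arrays. The differences then ran from -1.68 to -1.25 for Fst, from -1.13 to -0.90 for Ak1, from -1.04 to -0.82 for Ptp4a3 and from 0.77 to 0.93 for Stmn2.

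**Figure D4:**
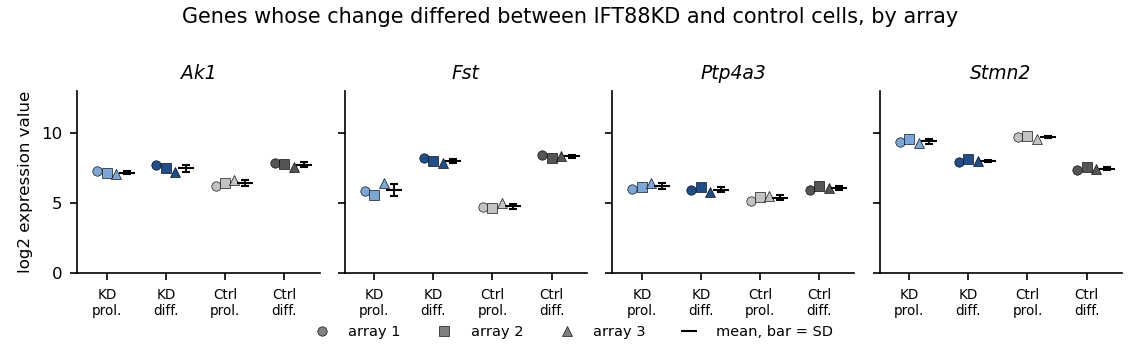
Log2 expression value (vertical axis) of the 4 genes whose differentiation change differed between IFT88KD (KD, blue) and control siRNA (Ctrl, grey) cells, by array (symbols) in proliferating (prol.) and differentiating (diff.) cells, with mean and SD (n = 3). Fst and Ak1 rose less after knockdown, by -1.50 and -1.02 against control, and Stmn2 fell less, by 0.84. Ptp4a3 changed by -0.24 after knockdown and rose by 0.70 in control cells, a difference of -0.94.

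Arrays with the same number in the knockdown and control groups of a condition deviated together (r = 0.304 to 0.708 among proliferating and 0.450 to 0.671 among differentiating arrays). With the array number as a block within each condition, 44 genes passed (0.512%), 13 higher (0.151%) and 31 lower (0.36%), the 4 genes above included. Of the 105 muscle list genes 15 were lower (14.3%) and none higher. Those that were lower included Mb (-1.46), Myl4 (-1.27), Tnnc1 (-1.20), Myh7 (-1.15), Ckm (-1.14), Myl1 (-1.11), Ryr1 (-1.06), Casq2 (-0.92) and Actn3 (-0.89). Igf2 (-1.09), Cdkn1a (-0.65), the connective tissue growth factor Ccn2 (-1.10) and Bex1 (-1.48) were also lower. Higher were the semaphorin Sema5a (1.16), the urea transporter Slc14a1 (1.15), Nqo1 (0.98) and the interferon-induced Ifitm1 (0.91), among others. Without the block none of these passed, so their calls depend on treating arrays of the same number as pairs.

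As a group, the muscle genes changed by a median of 1.84 after knockdown and 2.25 in control cells. The difference was below 0 for 94 of 105 genes, against 49.2% of all genes, with a median of -0.35, and for 14 genes it was lower at an unadjusted p under 0.05 against 1.76% of all genes. The size of that median rested on single proliferating arrays. It was -0.16 without replicate 3 of the proliferating knockdown cells (82 genes below 0) and -0.20 without replicate 1 of the proliferating control cells (79 genes), and -0.37 without the proliferating arrays numbered 3 of both siRNAs (93 genes). In levels, the median of knockdown minus control over the 105 genes was -0.22 in differentiating cells. In proliferating cells it was 0.10, but -0.0093 without the former array and 0.0147 without the latter. For the 13 thick filament genes the median difference was -0.71, with the myosin Myh8 (0.76) the 1 above 0. It was -0.20 without the former array and -0.28 without the latter. The myotube marker mean read 5.0, 5.65 and 7.44 and then 10.48, 10.26 and 10.11 after knockdown, and 3.80, 5.47 and 6.62 and then 10.70, 10.51 and 10.49 in control cells. Replicate by replicate, the knockdown arrays were higher before and lower after differentiation, with the groups overlapping before it.

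Mitosis genes differed the other way, falling by a median of 1.11 after knockdown against 1.36 in control cells. The difference was above 0 for 58 of 61 of them and for 44 of 53 replication genes, against 50.8% of all genes, with medians of 0.23 and 0.18. By array the mean of the mitosis genes was 7.57, 7.65 and 7.55 and then 6.24, 6.61 and 6.64 after knockdown, and 7.58, 7.65 and 7.49 and then 6.17, 6.23 and 6.42 in control cells. The groups overlapped in both conditions. Between arrays of the same number, knockdown minus control was 0.0730, 0.374 and 0.213 in differentiating cells, above 0 in 3 of 3, and -0.0094, 0.0031 and 0.0541 in proliferating cells. In each list 1 gene passed an unadjusted p under 0.05, and none passed after adjustment.

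The sterol and fatty acid synthesis genes, which make cholesterol and lipids under the control of SREBP factors, had medians of opposite sign under the 2 siRNAs. After knockdown 14 of 25 rose and 1, Fasn (-0.33; lost without replicate 1 of either condition), fell, with a median of 0.38, whereas the median in control cells was -0.10. The difference was above 0 for 23 of 25 genes (median 0.46), and 15 were higher at an unadjusted p under 0.05, against 1.8% of all genes. None passed after adjustment over all genes. The mean of the list was 6.39, 6.39 and 6.48 in proliferating and 6.73, 6.88 and 6.79 in differentiating knockdown cells, and 6.52, 6.72 and 6.74 and then 6.70, 6.58 and 6.60 in control cells. The knockdown groups lay below control before differentiation and above it afterwards, without overlap in either condition. Idi1, isopentenyl diphosphate isomerase, read 7.61, 7.53 and 7.82 and then 8.06, 8.02 and 8.04 after knockdown, a rise of 0.38, with -0.25 in control cells. Mvk, mevalonate kinase, rose by 0.66 and changed by -0.01 in control cells. Msmo1 rose by 0.44 (control -0.26, lost without proliferating replicate 3 or differentiating replicate 1), Hmgcs1 by 0.57 (control 0.08) and Fdft1 by 0.71 (control 0.22). Other probe sets above the filter level gave smaller rises after knockdown for Mvk (0.03) and Hmgcs1 (0.23, 0.17 and 0.34). Those of Idi1 (0.43) and Fdft1 (0.76) gave similar ones. The difference from control on these sets was 0.40 for Mvk, 0.27, 0.45 and 0.67 for Hmgcs1, 0.91 for Idi1 and 0.39 for Fdft1. Sqle, squalene epoxidase, changed by 0.21, which did not pass (adjusted p = 0.179), and by -0.46 in control cells. Dhcr7 rose under both siRNAs, by 0.92 to 1.22 after knockdown and 0.82 to 1.04 in control cells over the alternative settings. In control cells 4 of the 25 genes rose and 5 fell. The median difference stayed between 0.39 and 0.51 whichever single array was left out.

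The p53 target genes had a median difference of -0.25, above 0 for 6 of 26 genes, against 50.8% of all genes. At an unadjusted p under 0.05, 6 were lower and 1 higher, against 1.76% and 1.8% of all genes. None passed after adjustment without the block, and 2 were lower with it, against 0.36% of all genes. Their mean was 5.38, 5.38 and 5.52 and then 5.56, 5.59 and 5.63 after knockdown, and 5.03, 5.11 and 5.16 and then 5.47, 5.51 and 5.41 in control cells. The knockdown arrays were above the control arrays in both conditions without overlap, by more in proliferating than in differentiating cells.

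**Figure D5:**
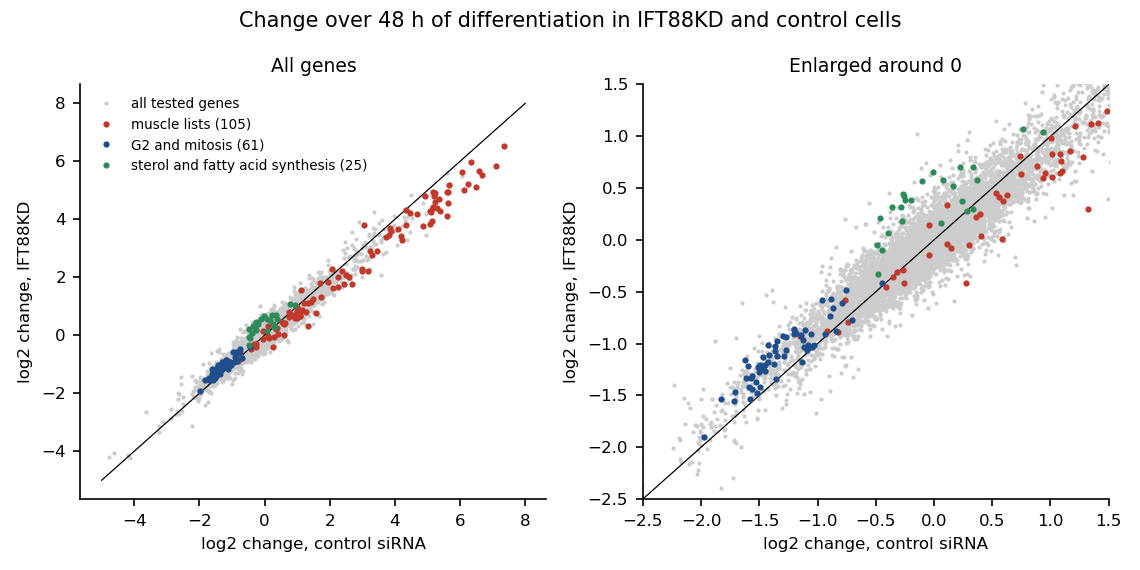
Log2 change over 48 h of differentiation in IFT88KD cells (vertical axis) against that in control siRNA cells (horizontal axis) for 8600 genes, all (left) and enlarged around 0 (right), with the line of equal change. Of the 105 muscle genes (red) 94 lie below the line, and 58 of 61 G2 and mitosis genes (blue) and 23 of 25 sterol and fatty acid synthesis genes (green) lie above it.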

How the data were processed

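Total RNA was hybridised to Affymetrix mouse arrays, per the labels' protocols. The deposited log2 values are the authors', made with GCOS, Affymetrix Expression Console and affy, per the submitters' processing notes; the normalisation method and versions are not given in the sources used here, and sorted values of the 6 arrays differed by a median of 0.11. Of 22690 probe sets, 64 were controls, 20380 named 1 gene, 691 several and 1555 none; only the first kind was used. The brightest probe set stood for a gene, with _x_at sets set aside where another existed. Gene names follow the platform annotation; 29 gene IDs were not matched in RefSeq.

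Probe sets above the 40th percentile on at least 3 arrays were fitted with limma 3.58.1 in R 4.3.3 over all 24 arrays and 8 groups, without a block, and Benjamini-Hochberg adjustment ran over 8600 genes. The number of arrays limits the precision. The script was tested on simulated data. Same-numbered arrays of the 2 conditions of IFT88KD cells correlated at 0.060 to 0.184, not all above 0.1, so numbers were not taken as pairs there. Those of control cells (0.164 to 0.284) and those between siRNAs within a condition met that rule. The main fit left this pairing out, and the counts with a block are given beside it. The comparison, its 34 pathway and 11 marker lists and the tests were chosen with earlier results of these data known. Named were the 15 largest rises and falls past an adjusted p of 0.05 with arrays that did not overlap, up to 4 genes a direction in each list, any measured member of small lists, the genes of the difference and Ift88. Some others (such as Myod1, Ccnb2, Cdc20, Pcna and the sterol genes with control values) were chosen after their values were seen. Of 1044 listed genes 918 were measured. Other probe sets, 205 of 121 named genes, gave a change at least 1.5 times smaller in 87 cases and opposite in 31, many near background. The smaller changes of Mvk, Hmgcs1 and E2f1 came from sets above the filter level. Alternatives changed the scaling, filter, probe set rule, model, block and arrays. Raw intensities were not used here.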

Additional observations from a re-analysis of the deposited data

Results flagged for a closer look

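Without a block for the array number, the differentiation change of IFT88KD cells differed from that of control cells in 4 genes. The test was limma's contrast of the 2 changes (adjusted p = 0.0495 each). In log2 the difference was -1.50 for Fst, -1.02 for Ak1, -0.943 for Ptp4a3 and 0.84 for Stmn2. With the array number as a block within condition 44 genes passed, these included. Over the alternatives that gave a value, the adjusted p ran from 6.27e-04 to 0.659 for Fst, from 0.00421 to 0.721 for Ak1, from 0.00475 to 0.721 for Ptp4a3 and from 0.0115 to 0.647 for Stmn2. The sign was the same in each of these alternatives.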

How the results depend on the processing

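The count of genes changed in IFT88KD cells lay between 3816 and 4242 when an array was left out (control cells 4101 to 4564). With each probe set on its own 6729 and 7314 probe sets changed in IFT88KD and control cells, and none differed between them. The difference of the changes passed for 8 genes with array weights, 44 with the replicate block within condition, 1 without the proliferating arrays numbered 3 of both siRNAs (chosen after seeing the data), and 0 to 2 with 1 array left out. It passed for 0 genes with no filter (451 at an unadjusted p under 0.05), with the mean of probe sets (296), on the compared arrays alone (278) and with the replicate block within siRNA (382). With that block 4546 genes changed in IFT88KD cells, and 4767 with it across all groups (control cells 4878 and 5091, against 4708 without); every array correlated best with its own number (3 of 3). The mean of all probe sets reversed Atp2a2 (1.07, control 1.23), Tpm1 (0.46, 0.57), Tpm3 (0.30, 0.62) and Asph (0.69, 0.64). List medians near 0 reversed under quantile normalisation for non-muscle contractile genes (0.0523), growth factors (0.0539), the respiratory chain (0.0049), p53 targets (0.0236) and unfolded protein genes (0.0066). Under centring they reversed for immediate early (-0.0490), TGF-beta (-0.0014) and interferon genes (-0.0129). The median of the cilium genes reversed under both, at -0.0132 with quantile normalisation and -0.0767 with centring. Of 264 named IFT88KD changes, 227 kept their direction and side of the threshold in every alternative, 33 lost the call in at least 1 and 4 reversed. The causes were not tested. Signal near background limits the size of the largest folds.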

Other observations

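Among proliferating cells, the arrays numbered 3 had the highest muscle values of both siRNAs: Myog read 9.17 on replicate 3 against 6.72 and 7.52 in IFT88KD cells, and Ckm 5.18 against 3.15 and 3.29. Serpinb2 (3.35 against 5.76 and 5.70) and Hmga2 (6.63 against 8.14 and 7.90) were lowest on the same array. The means of the cell cycle lists were also lowest on replicate 3 of both siRNAs, at 7.24, 7.19 and 7.05 for replication genes (control 7.31, 7.20 and 7.06) and 7.57, 7.65 and 7.55 for mitosis genes (control 7.58, 7.65 and 7.49). Id3 spanned 9.43 to 9.61 on these arrays and Cdkn1c 4.07 to 5.69, highest on replicate 3.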
